A study of Homo sapiens with 4 samples.

Results

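Amino acid transporters of the plasma membrane were followed in 2 prostate cancer lines, 22RV1 and PC3, after knockdown of DDX52. The group holds 10 genes, SLC7A11, SLC7A5, SLC3A2, SLC1A5, SLC1A4, SLC7A1, SLC38A1, SLC38A2, SLC6A9 and SLC43A1. They were selected by gene symbol from a list proposed with earlier results of these libraries in view, and all 10 matched 1 Ensembl gene each among the 60671 genes of the deposited profiles. Because the choice was made with those results known, every difference below between shDDX52 and shCON is a description, and the directions are not independent evidence.

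22RV1 and PC3 are established human prostate carcinoma lines. Each line was infected with lentivirus carrying 1 shRNA against DDX52 (shDDX52) or a control sequence (shCON), and stable transformants were selected with puromycin. DDX52 is a DEAD-box RNA helicase, and the comparison asks which transcripts differ when it is depleted. Each of the 4 conditions was sequenced as 1 library, so differences could not be set against a spread between replicates, and no test was made.

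Cells bring in amino acids through families of solute carriers, most of which either exchange one amino acid for another or use the sodium gradient to concentrate their substrate. SLC3A2 (4F2hc, CD98) is a heavy chain without transport activity of its own. It carries light chains to the cell surface, among them SLC7A5 (LAT1), which exchanges glutamine for leucine and other large neutral amino acids, and SLC7A11 (xCT), which exchanges glutamate for cystine. SLC1A5 (ASCT2) takes up glutamine, SLC38A1 and SLC38A2 (SNAT1 and SNAT2) load the cell with small neutral amino acids, and SLC7A1 (CAT1) carries arginine and lysine. Several of these genes are known targets of ATF4, the transcription factor that is translated when amino acids run short, and several are known to be induced by c-Myc.

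The values are TPM, which give the length-corrected share of each gene among all transcripts of a library, so levels of different genes can be compared within a library. Knockdown left DDX52 at 24.6% of its control level in 22RV1 (4.88 TPM with shCON, 1.20 TPM with shDDX52) and at 22.5% in PC3 (9.20 and 2.07 TPM). Of the prostate luminal markers, KLK3 was 6.84 and 4.51 TPM and KLK2 was 32.6 and 23.1 TPM in 22RV1, shCON first, and both were listed at 0 in PC3. TMPRSS2 and STEAP2 were detected in all 4 libraries, at 2.44 to 6.74 TPM. The 4 mesenchymal or basal-like markers VIM, CD44, CAV1 and AXL summed to 25.7 and 13.0 TPM in 22RV1 and to 778 and 940 TPM in PC3, shCON first. The sums thus had the same directions as the transporters, but CAV1 went the other way in PC3, at 162 and 130 TPM. CD44 was 17.1 and 7.01 TPM in 22RV1 and 571 and 664 TPM in PC3. In PC3 VIM was 12.6 and 66.7 TPM and AXL was 32.6 and 79.3 TPM. The part of these markers in the differences of the transporters was not tested. The leukocyte markers PTPRC and CD3E summed to at most 0.39 TPM in any library, and the fibroblast pair COL1A1 and DCN to between 4.68 and 8.65 TPM. The endothelial pair PECAM1 and VWF summed to at most 5.07 TPM. Read depth cannot be recovered from TPM, so intervals for counting error could not be computed. The mitochondrial genome held a larger share of the TPM with shDDX52 than with shCON, 13.0% against 9.81% in 22RV1 and 10.3% against 8.10% in PC3, and protein-coding genes held between 91.0% and 96.2%. Nuclear ribosomal RNA held 3.13% in PC3 shDDX52 and at most 1.21% in the other libraries. Because TPM values of a library add up to a constant, such shifts move all other values of a library. Each transporter kept the sign of its difference when the libraries were rescaled without mitochondrial genes and the 20 highest genes, over nuclear protein-coding genes alone, or on the median of all genes, except SLC7A11 in PC3, which lay under the filter and was not rescaled.

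With shDDX52, 9 of the 10 transporters were lower in 22RV1 cells and all 10 were higher in PC3 cells. Summed over the 10 genes, knockdown in 22RV1 left 682 TPM of the 916 TPM in the control, or 74.4%. The PC3 sum was 602 TPM after knockdown against 534 TPM in its control, or 12.9% more. Differences of single genes are given as a log2 ratio, the log2 of TPM + 1 with shDDX52 minus that with shCON. The pseudocount of 1 understates differences of genes with low levels. Background shares cover the genes that reached 1 TPM in 1 or both libraries of a line, which were 14438 genes in 22RV1 and 14262 in PC3. All 10 transporters passed this filter in 22RV1 and 9 in PC3, where SLC7A11 stayed under 1 TPM.

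In 22RV1 the median log2 ratio of the transporters was −0.41, against −0.076 over all genes, and a log2 ratio below 0 was found for 9 of 10 transporters and for 58.8% of all genes, and above 0 for 1 transporter and for 40.9% of all genes. Called at least 1.5-fold lower on this scale were 2 of the 10, SLC43A1 and SLC1A5, against 8.47% of all genes. Called at least 1.5-fold higher were 0 of 10, against 5.61% of all genes. In PC3 the median over the 9 transporters was 0.23, against −0.036 over all genes, and 9 of 9 had a log2 ratio above 0, against 46.3% of all genes, while 0 of 9 lay below 0, against 53.5%. There 2 of 9, SLC7A1 and SLC1A4, were called at least 1.5-fold higher, against 8.95% of all genes, and 0 of 9 were called at least 1.5-fold lower, against 9.84%. No transporter reached a 2-fold difference on this scale in either line, where a difference of that size was seen for 2.86% of all genes on the lower and 2.24% on the higher side in 22RV1, and for 3.44% and 2.86% in PC3. Lower in 22RV1 and higher in PC3 were 8 of the 9 transporters used in both lines, against 27.4% of the 12175 genes used in both, and 1, SLC38A2, was higher in both lines, against 18.5%. The other directions, lower in both lines (32.5% of all genes) and higher in 22RV1 but lower in PC3 (21.4%), held 0 transporters. Of all genes past 1.5-fold, 60.2% were lower in 22RV1 and 52.4% in PC3. After centring on the median of all genes the 22RV1 share was 48.6%, and with scaling over nuclear protein-coding genes, which moved the PC3 median by 0.12, the PC3 share was 32.6%. These counts restate the values by which the group was proposed and carry no test.

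**Figure D1:**
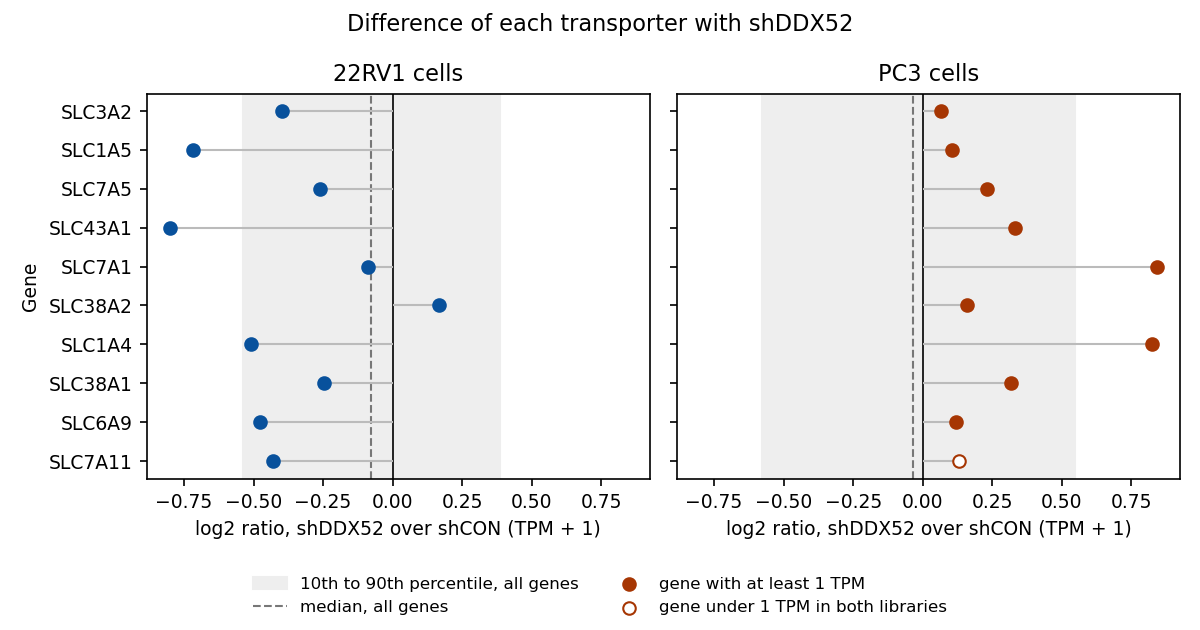
Log2 ratio of each transporter, shDDX52 over shCON on the TPM + 1 scale, in 22RV1 (left) and PC3 (right), 1 library per condition. The grey band spans the 10th to 90th percentile of all genes with at least 1 TPM and the dashed line is their median. Points lie left of 0 for 9 of 10 genes in 22RV1 and right of 0 for all 10 in PC3, where the open point is SLC7A11, which stayed under 1 TPM.

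The heavy chain SLC3A2 was the most abundant transporter mRNA in each of the 4 libraries. Its level in 22RV1 was 306 TPM with the control and 231 TPM with the knockdown, and in PC3 it was 223 and 233 TPM. The control 22RV1 library thus stood above the other 3, which lay close together. The log2 ratio was −0.40 in 22RV1, where 16.9% of genes lay lower, and 0.064 in PC3, the smallest difference of any transporter there.

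SLC7A5, the light chain that imports leucine, had 208 TPM in the 22RV1 control and 174 TPM after knockdown, a log2 ratio of −0.26. The PC3 levels were 178 and 209 TPM, shCON first, a log2 ratio of 0.23. The level in PC3 shDDX52 was thus about that of 22RV1 shCON, and the other two libraries were also close to each other. SLC7A5 has partial pseudogene copies, of which SLC7A5P1 and SLC7A5P2 were listed at no more than 1.56 TPM. How reads shared with them were counted is not given in the sources used here.

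SLC7A11, the cystine carrier, was the lowest of the 10 genes in every library. In 22RV1 it was 2.19 and 1.37 TPM, shCON first, so the knockdown value was 62.6% of the control. The log2 ratio was −0.43, and with a pseudocount of 0.1 it was −0.64 and past the 1.5-fold limit. In PC3 it was 0.60 and 0.75 TPM, shCON first, and both values lay under the filter. The log2 ratio there was 0.13. At such levels the difference between the PC3 libraries is 0.15 TPM and cannot be judged without read numbers.

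Among the 6 light chains that pair with SLC3A2, SLC7A5 accounted for between 95.0% and 95.9% of the summed TPM in each library. SLC7A6 (y+LAT2) had 4.40 and 3.11 TPM in 22RV1 and 7.92 and 7.96 TPM in PC3, shCON first, and SLC7A8 (LAT2) was 3.03 and 2.21 TPM in 22RV1 and 0.48 and 0.53 TPM in PC3. SLC7A7 and SLC7A10 stayed at or below 0.66 TPM in each library. The ratio of the summed light chains to SLC3A2, which does not depend on library scaling, was 0.714 and 0.783 in 22RV1 and 0.841 and 0.940 in PC3, shCON first. This ratio was higher with shDDX52 than with shCON in both lines, although the levels of the chains moved in opposite directions. In 22RV1 the heavy chain was lower by more than its light chains, and in PC3 the light chains were higher by more than the heavy chain. The ratio of SLC7A11 to SLC3A2 was between 0.0027 and 0.0072 in all 4 libraries.

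**Figure D2:**
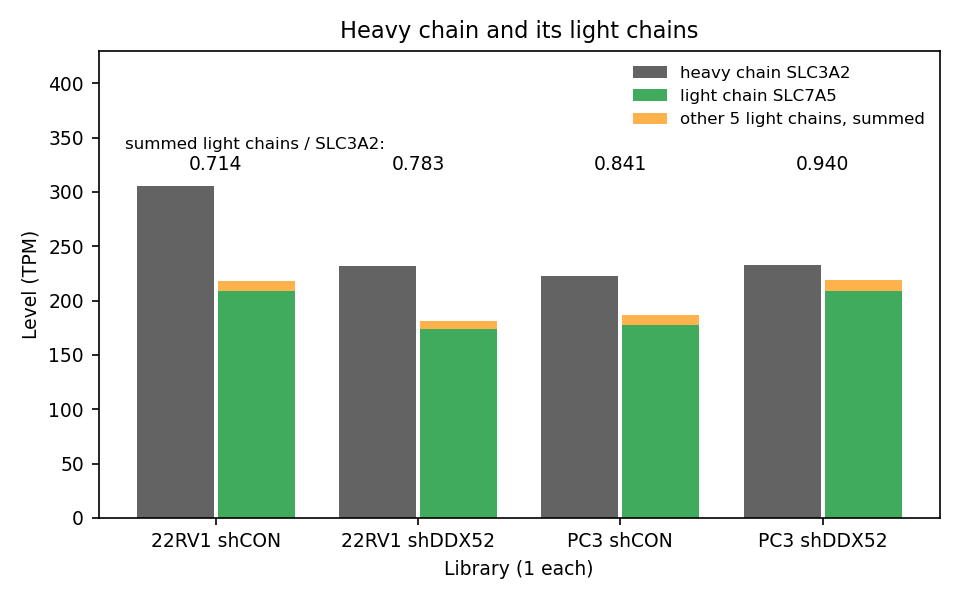
Levels in TPM of the heavy chain SLC3A2 (grey) and of its light chains, SLC7A5 (green) with the other 5 summed on top (orange), in the 4 libraries. The printed ratios of summed light chains to heavy chain were 0.714 and 0.783 in 22RV1 and 0.841 and 0.940 in PC3, shCON first, and SLC7A5 makes up nearly all of the light chain bar.

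SLC1A5 and SLC1A4, exchangers of small neutral amino acids, were both lower in 22RV1 and higher in PC3 with shDDX52. SLC1A5, the glutamine exchanger, was 245 and 148 TPM in 22RV1 and 61.7 and 66.5 TPM in PC3, shCON first. Both 22RV1 values lay above both PC3 values. In TPM the 22RV1 difference was the greatest of the 10 genes. Its log2 ratio was −0.72, where 5.37% of genes lay lower, while in PC3 the log2 ratio was 0.11. Within each library, the ratio of SLC1A5 to SLC7A5 was 1.18 and 0.853 in 22RV1 and 0.347 and 0.318 in PC3, shCON first, so SLC1A5 was lower relative to SLC7A5 with shDDX52 in both lines. This pair was chosen after the values were seen.

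SLC1A4 (ASCT1), which exchanges alanine, serine, cysteine and threonine, was 19.7 and 13.6 TPM in 22RV1 and 1.99 and 4.29 TPM in PC3, shCON first. The 22RV1 log2 ratio was −0.51. In PC3 it was 0.82, and 95.8% of genes lay lower. Without a pseudocount, the PC3 knockdown value was 216% of the control, but with a pseudocount of 5 the log2 ratio was 0.41 and under the 1.5-fold limit.

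SLC7A1, the carrier of arginine and lysine, showed the opposite balance between the lines. Its levels of 33.0 and 31.0 TPM in 22RV1 differed little, with a log2 ratio of −0.088 that was close to the median of all genes. In PC3 the levels were 11.2 and 20.8 TPM, shCON first, a log2 ratio of 0.84. This was the greatest of the 10 genes there with a pseudocount of 1 and the deposited scaling. With a pseudocount of 0.1 SLC1A4 was greater, at 1.07 against 0.89. The SLC7A1 log2 ratio stayed between 0.67 and 0.97 under each alternative pseudocount, filter and scaling.

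The sodium-coupled carriers SLC38A1 and SLC38A2, which accumulate glutamine, alanine and other small neutral amino acids, differed from each other in 22RV1. SLC38A1 was 16.1 and 13.4 TPM there, shCON first, a log2 ratio of −0.25. SLC38A2 was 32.9 and 37.0 TPM, a log2 ratio of 0.17, and it was the only one of the 10 genes that was higher with shDDX52 in 22RV1. In PC3, SLC38A1 was 19.4 and 24.5 TPM with a log2 ratio of 0.32, and SLC38A2 was 23.2 and 26.0 TPM with a log2 ratio of 0.16. SLC38A2 was therefore the only transporter with a higher level in both knockdown libraries, and its log2 ratio was about the same in both lines. The within-library ratio of SLC38A2 to SLC38A1 was 2.05 and 2.76 in 22RV1 and 1.19 and 1.06 in PC3, shCON first.

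SLC6A9 (GlyT1), a sodium- and chloride-coupled glycine carrier, was 14.1 and 9.83 TPM in 22RV1 and 9.52 and 10.4 TPM in PC3, shCON first. The control 22RV1 library again stood above the other 3, and the log2 ratios were −0.48 and 0.12. Exons of CCDC24 on the opposite strand cover 7.83% of the SLC6A9 exon bases in GENCODE 29. CCDC24 was 15.0 and 23.5 TPM in 22RV1 and 16.5 and 13.4 TPM in PC3, in each line the reverse of SLC6A9. Whether strand was used in counting is not given in the sources used here, so reads in the shared bases cannot be assigned. For SLC1A5, SLC7A11 and SLC7A5, genes on the opposite strand that share between 5.71% and 23.4% of their exon bases were listed at no more than 1.30 TPM.

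SLC43A1 (LAT3), a carrier of leucine and other branched amino acids that does not need the heavy chain, had 39.3 TPM in the 22RV1 control and 22.1 TPM after knockdown. Its log2 ratio of −0.80 was the lowest of the 10 genes, with 4.32% of genes lower, and the knockdown level was 56.3% of the control. In PC3 it was 5.84 and 7.62 TPM, shCON first, with a log2 ratio of 0.33. The luminal markers KLK3, KLK2, TMPRSS2 and STEAP2 were also lower in 22RV1 shDDX52, with log2 ratios between −0.51 and −0.12, and their part in this difference was not tested.

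**Figure D3:**
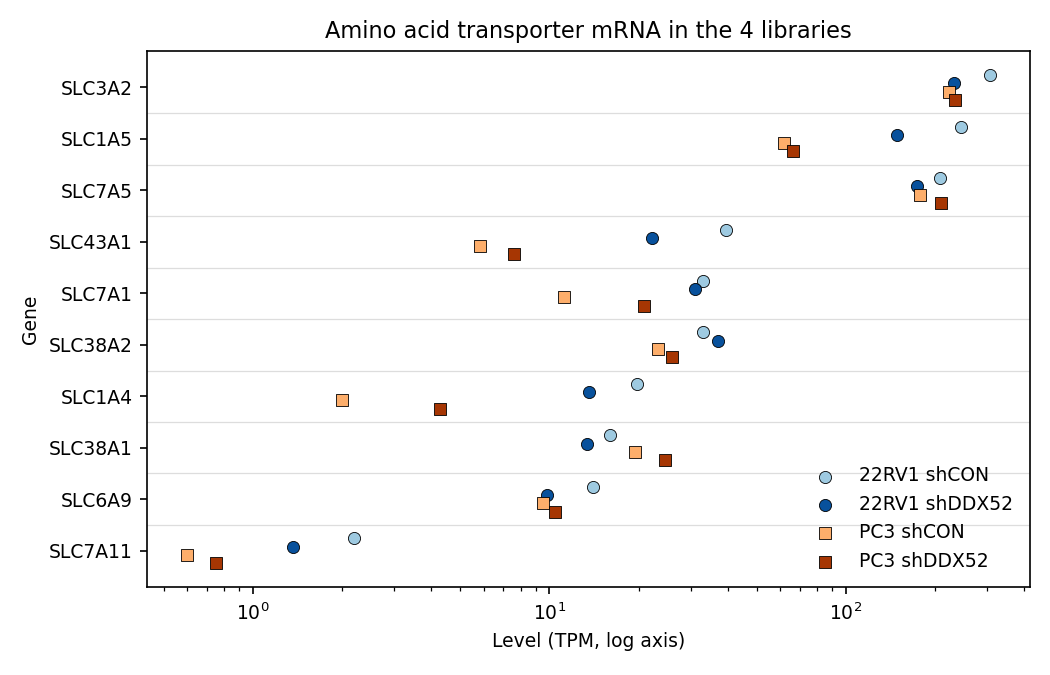
Level of each transporter in TPM (log axis) in the 4 libraries, circles for 22RV1 and squares for PC3, pale for shCON and dark for shDDX52, with genes ordered by their level in 22RV1 shCON. The dark circle lies left of the pale circle for 9 of 10 genes, the dark square lies right of the pale square for all 10, and SLC3A2, SLC7A5 and SLC1A5 stand above the others in each library.

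The order of the transporters by level was much the same in each library. SLC3A2, SLC7A5 and SLC1A5 held the first 3 places in each and took between 81.2% and 86.6% of the summed TPM of the 10 genes, and SLC7A11 was last. The next 3 places went to SLC38A2, SLC7A1 and SLC43A1 in 22RV1, in a different order in each library, and to SLC38A2, SLC38A1 and SLC7A1 in PC3. With 1 library per condition, no spread exists against which neighbours in this order could be separated.

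Comparing the control libraries, 9 of 10 transporters were lower in PC3 than in 22RV1, against 52.3% of 15727 genes, and 1 was higher, against 47.6%. At least 1.5-fold lower were 5 of 10, against 32.2%, and 0 were at least 1.5-fold higher, against 29.3%. At least 2-fold lower on the log2 ratio scale were 4 of 10, against 21.3% of all genes, and 0 were at least 2-fold higher, against 19.9%. These 4 were SLC1A4, SLC43A1, SLC1A5 and SLC7A1, whose TPM was 9.91, 6.73, 3.97 and 2.96 times as high in 22RV1 shCON as in PC3 shCON. SLC7A11 was 3.65 times as high, but with the pseudocount of 1 its log2 ratio fell just short of the 2-fold limit. With a pseudocount of 0.1, and with either rescaling over fewer genes, it passed and the count was 5. SLC38A1 was the 1 gene with a higher level in the PC3 control, by 1.21 times. These levels come from separate tables, each scaled to its own total. With shDDX52 the gap between the lines was smaller for 7 of the 10 genes. It was 3.16-fold for SLC1A4, 2.90-fold for SLC43A1, 2.23-fold for SLC1A5 and 1.49-fold for SLC7A1, each higher in 22RV1, and SLC3A2 was 231 and 233 TPM in the knockdown libraries. Each of the 7 genes was higher in the 22RV1 control, and lower in 22RV1 and higher in PC3 with shDDX52. The narrowing restates those values and is not a separate result, and no share over all genes was computed for it. SLC7A5 and SLC38A1 also had opposite directions, but their gaps did not narrow. For SLC7A5 it was 1.17-fold, higher in 22RV1, with shCON and 1.20-fold, higher in PC3, with shDDX52. For SLC38A1, higher in PC3 in both, it was 1.21-fold and 1.83-fold.

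Promoter sequence was available for 9 of the 10 genes, as 16 windows of 300 bases that reach from 250 bases before to 50 after a transcript start (RefSeq, GRCh38.p14). SLC7A11 had none. The windows were searched on both strands for TGATGNAA, the core of the element bound by ATF4 with C/EBP partners, because several of these genes are known ATF4 targets. The match is in capitals, each stretch reads along the gene from 5′ to 3′, and TTNCATCA is the same motif on the opposite strand. A match was found in 5 of 9 genes, against 4.46% of the 27305 genes searched, or in 5 of 16 windows, against 3.62% of 35116. Genes with several windows had more bases searched. The 5 stretches were as follows.
SLC1A4, chr2:64989382-64989409, plus strand: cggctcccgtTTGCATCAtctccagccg
SLC3A2, chr11:62881726-62881748, plus strand: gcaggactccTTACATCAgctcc
SLC38A1, chr12:46266503-46266530, minus strand: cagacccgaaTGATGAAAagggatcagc
SLC7A1, chr13:29595664-29595691, minus strand: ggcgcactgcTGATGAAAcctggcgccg
SLC1A5, chr19:46784894-46784921, minus strand: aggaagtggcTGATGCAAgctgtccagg
In SLC1A4 and SLC38A1 the motif spans the transcript start, in SLC7A1 and SLC3A2 it lies 8 and 38 bases into the transcript, and in SLC1A5 it takes positions −97 to −90 from another of its annotated starts. No stretch matched the longer form TGATGNAAT, which 1.22% of genes held.

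The antioxidant core TGACNNNGC was present in 4 of the 9 genes, SLC7A5, SLC3A2, SLC1A5 and SLC7A1, against 16.1% of all genes, and it does not overlap the stretches above. The E-box CACGTG, the site bound by c-Myc, was searched as well because c-Myc is the subject of the study, a choice made after seeing the data. It was found in SLC7A5, SLC43A1 and SLC1A5, that is 3 of 9 genes, against 8.77% of all genes. The 3 genes with this motif are shown with it in capitals.
SLC7A5, chr16:87869622-87869647, minus strand: ccggacgacgCACGTGctccgagctg
SLC43A1, chr11:57515799-57515824, minus strand: gcgggcgagtCACGTGcgcgtgaaac
SLC1A5, chr19:46787328-46787353, minus strand: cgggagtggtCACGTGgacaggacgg
These are descriptions of letters in the reference, and binding was not measured in these cells. In 22RV1 the log2 ratios of the genes with TGATGNAA lay between −0.72 (SLC1A5) and −0.088 (SLC7A1). Those of the genes with windows but no such match lay between −0.80 (SLC43A1) and 0.17 (SLC38A2). In PC3 the ranges were 0.064 (SLC3A2) to 0.84 (SLC7A1) with a match and 0.12 (SLC6A9) to 0.33 (SLC43A1) without. A link between the motif and these differences was not tested.

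For the other transporters of the plasma membrane, lower in 22RV1 and higher in PC3 were 3 of the 9 used in both lines, against 27.4% of all genes. Of 41 further genes listed, 17 passed the filter in 22RV1 and 12 in PC3. In 22RV1 their median log2 ratio was −0.18, with 12 of 17 below 0 (58.8% of all genes), 3 called lower (8.47%) and 1 called higher (5.61%). In PC3 it was −0.14, with 6 of 12 below 0 (53.5% of all genes), 3 called lower (9.84%) and 1 called higher (8.95%). SLC43A3, a relative of SLC43A1 that carries purine nucleobases, was lower in both lines, at 18.9 and 10.6 TPM in 22RV1 and 151 and 121 TPM in PC3, shCON first. SLC43A2 (LAT4), another leucine carrier, went the other way from SLC43A1 in both lines, with 16.6 and 29.8 TPM in 22RV1 (log2 ratio 0.81) and 6.61 and 5.22 TPM in PC3 (−0.29), shCON first. In PC3, SLC38A10 was 42.9 and 25.8 TPM (−0.71), the glutamate carrier SLC1A6 was 7.70 and 2.86 TPM (−1.17) and the taurine carrier SLC6A6 was 12.1 and 20.3 TPM (0.70). SLC1A6 was listed at 0 in both 22RV1 libraries.

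The listed lysosomal and mitochondrial carriers, not all of them for amino acids, had a median of −0.13 in 22RV1, with 13 of 19 below 0 (58.8% of all genes). In PC3 the median was 0.15, with 15 of 21 above 0 (46.3%). Lower in 22RV1 and higher in PC3 were 9 of the 19 used in both lines, against 27.4% of all genes. The reverse directions were found for 1, against 21.4%. SFXN1, the mitochondrial serine carrier, was lower in 22RV1 and higher in PC3, 42.3 and 27.8 TPM in 22RV1 (−0.59) and 13.6 and 20.2 TPM in PC3 (0.53), shCON first. SLC25A13, an aspartate and glutamate carrier, was 30.6 and 19.6 TPM in 22RV1 (−0.61) and 21.8 and 20.3 TPM in PC3 (−0.095). SLC38A9, the lysosomal arginine sensor, was higher in 22RV1 shDDX52, 6.96 against 3.64 TPM (0.78), and 6.86 against 6.13 TPM in PC3 (0.14). In PC3, SLC36A4 was 5.16 and 9.21 TPM (0.73) and SLC25A40 was 6.01 and 2.99 TPM (−0.81).

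Over the 29 genes of the amino acid shortage response, the 22RV1 median was −0.41, against −0.076 over all genes. There 26 of 29 were below 0 (58.8% of all genes), 9 were called lower (8.47%) and 1 was called higher (5.61%). In PC3 the median was 0.18, against −0.036, with 17 of 27 above 0 (46.3%). There 4 were called higher (8.95%) and 3 called lower (9.84%), the last near the share of all genes. Lower in 22RV1 and higher in PC3 were 14 of the 27 used in both lines, against 27.4% of all genes. The reverse directions were found for 0, against 21.4%. ATF4 mRNA was 783 and 593 TPM in 22RV1 (−0.40) and 345 and 392 TPM in PC3 (0.18), shCON first, and DDIT3 was 44.9 and 25.9 TPM (−0.77) and 14.3 and 19.8 TPM (0.44). ASNS, asparagine synthetase, was 161 and 62.4 TPM in 22RV1 (−1.36), beyond any transporter, but 20.9 and 21.5 TPM in PC3 (0.039). MTHFD2, a mitochondrial one-carbon enzyme, was lower in both lines (−1.06 and −0.61), as was TRIB3 (−0.31 and −0.20). The glutathione-degrading CHAC1 was 6.16 and 2.61 TPM in 22RV1 (−0.99) and 6.15 and 7.92 TPM in PC3 (0.32), and ATF5 was higher in both (0.67 and 0.55). In PC3, DDIT4 (0.99), STC2 (0.94) and SESN2 (0.81) were called higher, and NUPR1 (−0.87) and CEBPB (−0.61) lower. Since ATF4 activity is set mainly by translation, its mRNA does not measure it.

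**Figure D4:**
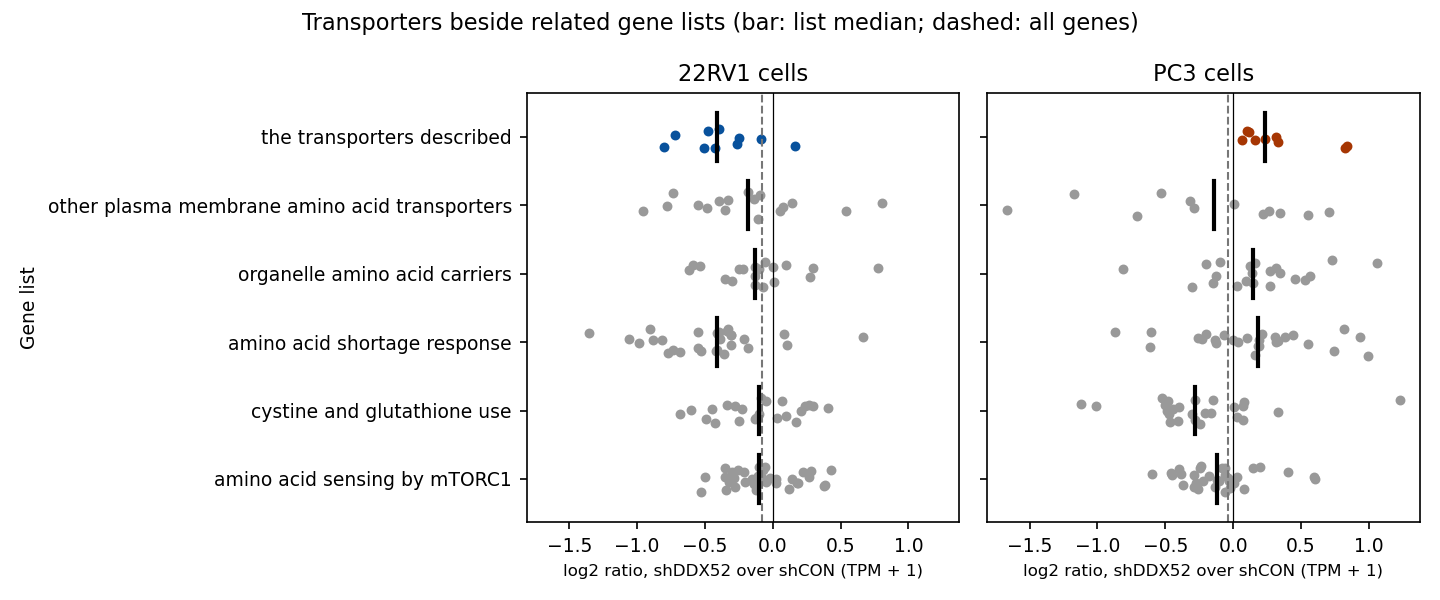
Log2 ratio (TPM + 1 scale, shDDX52 over shCON) of each gene with at least 1 TPM in the transporter group (coloured) and in 5 related lists (grey), in 22RV1 and PC3, with 1 library per condition. Black bars are list medians, the dashed line is the median of all genes, and vertical scatter is only for display. The transporter and shortage response medians were −0.41 and −0.41 in 22RV1 and 0.23 and 0.18 in PC3.

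Genes with the most similar profile over the 4 libraries were sought among protein-coding genes with at least 5 TPM in a library, by the Euclidean distance between log2(TPM + 1) profiles centred on their own mean. Over 4 points this is a description. Nearest to SLC3A2 were OGG1 (distance 0.012), FYTTD1 (0.051) and ENSG00000259316 (0.056), nearest to SLC7A5 were DIP2A (0.047), YWHAQ (0.051) and CHPF2 (0.060), and among the nearest to SLC7A11 were CDC73 (0.040) and LETMD1 (0.051). None of these is an amino acid transporter. SLC7A11 had at most 2.19 TPM, so the pseudocount of 1 shrinks the differences in its profile. In TPM it was 2.19 in 22RV1 shCON and 0.60 in PC3 shCON, where CDC73 was 9.82 and 4.56.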

How the data were processed

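RNA-seq profiled 22RV1 and PC3 cells with shCON or shDDX52, 1 library per condition, grouped by the sample titles. Reads were mapped on an online platform of the sequencing provider, and the authors deposited TPM per Ensembl gene. The submitters' processing notes name CASAVA, HISAT2 and hg19. The quantifier, the annotation and the use of strand are not given in the sources used here. Of the 60671 gene identifiers, 42020 had a symbol in a table of gene names and 58453 were in GENCODE 29 (GRCh38), which gave gene types and exon overlaps. Promoter windows refer to GRCh38.p14 and not to the build of the values.

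Log2 ratios were computed with a pseudocount of 1 TPM for all genes that reached 1 TPM in 1 or both libraries of a comparison, and called past 1.5-fold. TPM keeps no depth, and with 1 library per condition no test was made. The calculation was run on simulated data with large planted differences in genes away from low levels, called at 2-fold. Calls at 1.5-fold and genes with low levels were not tested in this way. The members and the 5 wider lists (156 of 157 symbols matched) were chosen with earlier results of these data known. Genes named from the lists were the 3 lowest and 3 highest past 1.5-fold among those with at least 5 TPM in a library, for each cell line, plus ATF4, ASNS, TRIB3, DDIT3, the 6 light chains and, for SLC7A11, SLC7A5 and SLC3A2, the 3 genes with the nearest profile. CCDC24 was added after its values were seen. Some genes that this rule or the marker lists name are not reported here. Alternatives covered the pseudocount, filter, scaling, fold and motif. Python 3.11.15 was used with pandas 2.3.3, numpy 2.4.6 and, for the plots, matplotlib 3.10.9.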

Additional observations from a re-analysis of the deposited data

Results flagged for a closer look

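Most transporters had opposite directions in the 2 cell lines, lower with shDDX52 in 22RV1 and higher in PC3. With 1 library per condition, none of these differences between the lines was tested. As the PC3 log2 ratio minus the 22RV1 log2 ratio, the difference was 1.33 for SLC1A4, 1.13 for SLC43A1, 0.93 for SLC7A1, 0.83 for SLC1A5, 0.60 for SLC6A9, 0.56 for SLC38A1, 0.56 for SLC7A11, 0.49 for SLC7A5 and 0.46 for SLC3A2. SLC7A11 was under 1 TPM in both PC3 libraries, and SLC7A1 was close to the median of all genes in 22RV1. SLC38A2 did not differ in direction between the lines.

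The medians of 3 lists were also on opposite sides of 0. The difference between the lines was 0.65 for the transporters, 0.60 for the amino acid shortage response and 0.27 for the organelle carriers.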

How the results depend on the processing

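The 67 results were recomputed under the alternatives, which gave 387 values, of which 362 kept their direction and, for single genes, their side of the fold limit, or, for medians and counts, stayed within 0.1 or 1.5 times. The log2 ratios of the transporters kept their sign, but SLC7A11 in PC3, under 1 TPM, was recomputed without the filter only. A pseudocount or a filter cannot change such a sign, so only the rescalings and the centring could have done so. A filter also leaves the value of a single gene as it was, and such unchanged values are among the 362. Single values could shrink, as with a pseudocount of 5, where SLC7A11 was −0.17 in 22RV1 and −0.36 between the controls, and SLC1A4 −1.82 between the controls. No paired analysis was possible because there was 1 library per condition. The cause was not tested, except where the filter or fold sets the genes counted. With a pseudocount of 5, the median of the transporters in 22RV1 was −0.31, and 1 transporter was called higher in PC3. With at least 5 TPM, 1 was called higher in PC3 and the other plasma membrane transporters had a median of −0.0098 in 22RV1. Without a filter, that list had a median of 0 in both lines. At 2-fold, 0 transporters were called lower in 22RV1 and 0 higher in PC3.

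Scaling over nuclear protein-coding genes took the PC3 median of all genes from −0.036 to 0.087, and that of the transporters to 0.36. In PC3 it gave 0.27 for the organelle carriers, 0.31 for the shortage response, −0.030 for the other plasma membrane transporters and −0.16 for cystine and glutathione use, and it reversed amino acid sensing to 0.0080. Of all genes, 1223 were called lower and 810 higher in 22RV1, against 335 and 235 with a pseudocount of 5 and 1819 and 1130 with 0.1. In PC3 the 1404 lower and 1276 higher became 532 and 394, and 1865 and 1816. With at least 5 TPM they were 588 and 335 in 22RV1 and 793 and 708 in PC3, and over nuclear protein-coding genes 802 and 531, and 659 and 1360.

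With a pseudocount of 1, the ratio of SLC7A11 to SLC3A2 was 0.010 in both 22RV1 libraries (0.0104 and 0.0102), 0.0072 in PC3 shCON and 0.0075 in PC3 shDDX52. The motif TGATGNAAT gave 0 of 9 promoters in place of 5, and CACGTG, added after seeing the data, gave 3. Read numbers are unknown for all values, including SLC7A11 and SLC1A4, whose PC3 levels were under 5 TPM.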

Other observations

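Among the cystine and glutathione genes, 14 of 23 had a log2 ratio below 0 in 22RV1 (median −0.10), near the 58.8% and the median of −0.076 over all genes. In PC3 it was 18 of 25 (median −0.28), against 53.5% and −0.036 over all genes. Lower in 22RV1 and higher in PC3 were 4 of the 23 used in both lines (27.4% of all genes), and 7 had the reverse directions (21.4%). TXNRD1, thioredoxin reductase, stood apart with 80.2 and 63.3 TPM in 22RV1 (−0.34) and 109 and 257 TPM in PC3 (1.23), shCON first. NQO1, a quinone reductase, was lower in both lines, at 182 and 113 TPM in 22RV1 (−0.68) and 161 and 116 TPM in PC3 (−0.47). FTH1, the ferritin heavy chain, was 3213 and 2113 TPM in 22RV1 (−0.60) and 9232 and 4241 TPM in PC3 (−1.12), and since it has many processed pseudogenes its value can depend on how shared reads were counted. The heme carrier SLC48A1 was 18.8 and 8.79 TPM in PC3 (−1.01).

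The kinase complex mTORC1 couples amino acid supply to growth. Of the genes of amino acid sensing by mTORC1, 0 of 36 were past 1.5-fold in 22RV1, against 8.47% of all genes on the lower and 5.61% on the higher side. The median was −0.10, against −0.076 over all genes. In PC3, 1 of 33 was called lower (9.84% of all genes) and 2 were called higher (8.95%). The median there was −0.12, against −0.036 over all genes. With scaling over nuclear protein-coding genes it changed sign to 0.0080, but the median of all genes was then 0.087. Lower in 22RV1 and higher in PC3 were 4 of the 33 used in both lines (27.4% of all genes), and 7 had the reverse directions (21.4%). In PC3, CASTOR1, the cytosolic arginine sensor, was 6.33 and 10.1 TPM (0.60) and KPTN was 7.85 and 4.86 TPM (−0.59), shCON first.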
